A study of Homo sapiens with 19 samples.

Results

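The phagocyte NADPH oxidase genes described here are CYBB, CYBA, NCF1, NCF4 and RAC2, which is 5 of the 20007 protein-coding genes examined. They were taken by name, and for each one the peaks of 12 lists were collected within 10 kb either side of the transcription start site (TSS) and over the gene body. By this rule 82 peaks belonged to the 5 genes: 30 to RAC2, 24 to NCF4, 14 each to CYBA and CYBB, and 0 to NCF1. The study applied CUT&RUN, which uses a nuclease tethered to an antibody to cut out chromatin around a mark, to MOLM-13, a human acute myeloid leukaemia cell line. The lists analysed were 4 each for H3K27ac (acetylation found at active promoters and enhancers), H3K4me2 (methylation of promoters and enhancers) and H3K4me3 (methylation centred on promoters). For each mark, 2 libraries came from cells treated with Corin, a compound that inhibits both enzymatic activities of the CoREST complex (the demethylase LSD1 and its deacetylases), and 2 from cells given the vehicle DMSO. Cells of both groups were of this 1 line, with no genetic change named in the labels, and were collected after 24 h, with Corin at 0.1 µM. The other 7 of the 19 libraries in the series were not analysed here.

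The phagocyte NADPH oxidase is the enzyme with which neutrophils and macrophages make superoxide to kill microbes. CYBB encodes its catalytic, electron-carrying membrane subunit, and CYBA encodes the partner that stabilises it. NCF1 and NCF4 encode cytosolic subunits, of which NCF1 organises assembly at the membrane and NCF4 binds a phosphoinositide of the phagosome. RAC2 encodes the small GTPase of blood cells that joins the assembled enzyme. Inherited loss of CYBB, CYBA, NCF1 or NCF4 causes chronic granulomatous disease, and the oxidase is acquired as myeloid cells mature.

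The value compared below is the number of base pairs (bp) under peaks in the same 10 kb window either side of the TSS, so that it has the same length for every gene. It is a width of called enrichment, not a read count, and it says nothing of RNA. In the DMSO libraries the 5 genes differed from each other. For H3K4me2 the order was RAC2 (mean 3521.5 bp), CYBA (2801.0 bp), NCF4 (2476.0 bp), CYBB (630.0 bp) and NCF1 (0 bp), and no neighbours in this order overlapped. For H3K27ac NCF4 led with 2481.5 bp, RAC2 (694.5 bp) and CYBA (636.5 bp) overlapped, and CYBB and NCF1 had none. For H3K4me3 RAC2 (1662.0 bp), CYBA (1459.0 bp) and NCF4 (1427.5 bp) overlapped, and CYBB and NCF1 had none. The plot of coverage by library shows these levels with their Corin counterparts.

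**Figure D1:**
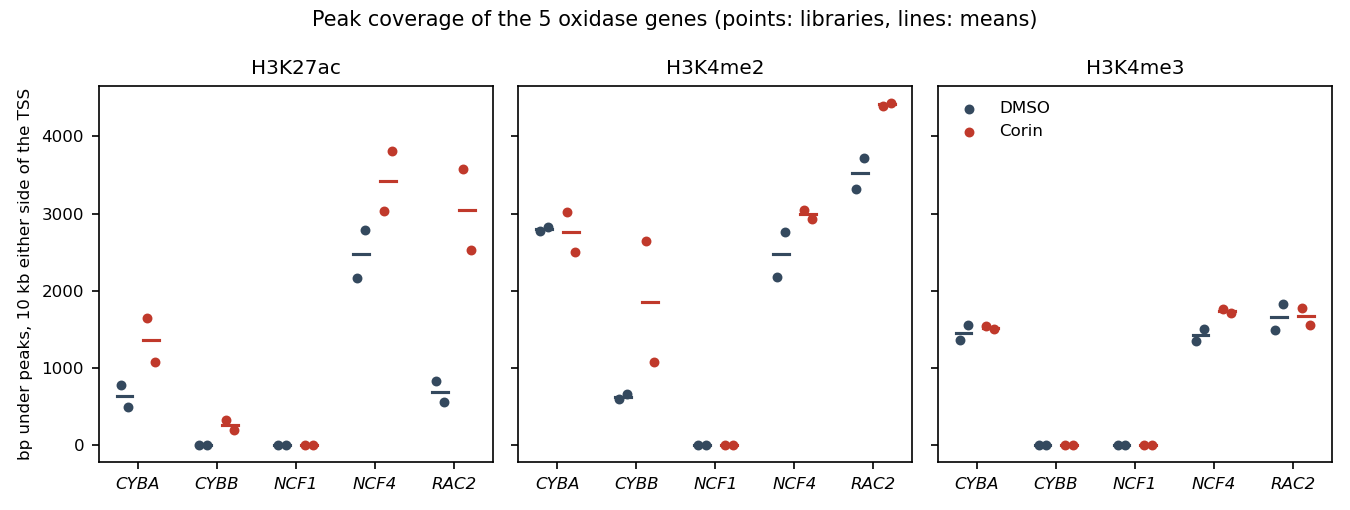
Base pairs under peaks within 10 kb either side of the TSS (vertical axis) for the 5 genes, with 1 point per library and a line at each group mean of 2 libraries, for H3K27ac, H3K4me2 and H3K4me3. RAC2 H3K27ac lies at 2529 and 3574 bp in Corin and at 559 and 830 bp in DMSO, while the H3K4me3 values of CYBA and RAC2 overlap between the groups and NCF1 is at 0 throughout.

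The lists differed in length between the groups over the whole genome. The Corin H3K27ac lists held 34424 and 30029 peaks and the DMSO lists 17599 and 19995, H3K4me2 held 40042 to 41152 against 30896 to 32299, and H3K4me3 11757 to 11883 against 11104 to 11343. The coverage of the members was therefore also computed from the best-scoring peaks at a matched number, that of the smallest list of the mark. The cell type was checked by H3K4me3 within 1 kb of the TSS: 7 of 9 genes of myeloid leukaemia cells, SPI1, CEBPA and CD33 among them, had a peak in all 4 libraries, MPO had none and CSF1R had 1. None of the 4 T cell, 4 B cell, 4 erythroid and 4 non-blood genes had a peak in any of the 4.

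H3K27ac coverage was higher in both Corin libraries than in both DMSO libraries at CYBB, CYBA, NCF4 and RAC2, all 4 of the members with a peak of this mark. CYBB had such peaks in the Corin libraries alone, so it could only be counted as higher. The same held for 54.6% of the 10653 genes with an H3K27ac peak, and the reverse for 0.591%. H3K4me2 coverage was higher at CYBB, NCF4 and RAC2, 3 of 4 members with a peak, against 39.6% of 14251 genes (lower in 3.91%). Without Corin replicate 2 the count was 4 of 4, CYBA included, against 66.3% of genes, and without DMSO replicate 2 it was 3 of 4, against 66.3%. H3K4me3 coverage was higher at NCF4 alone, 1 of 3, against 25.8% of 11398 genes (lower in 8.38%). With so few members these counts were not tested against the genome. The median difference of the members with a peak was 833.0 bp for H3K27ac, 703.8 bp for H3K4me2 and 64.5 bp for H3K4me3, and that of all genes with a peak was 445.0, 230.0 and 63.5 bp. At a matched number of peaks H3K27ac was higher at 3 members, CYBB no longer among them, H3K4me2 at 3 and H3K4me3 at 1, and the share of all genes that was higher was 35.1%, 31.2% and 24.5%. H3K27ac was also higher at 3 members with 5 kb either side of the TSS (50.5% of all genes), with a score of at least 100 (51.6%), or with the window placed at the 5′ end of the annotated gene (54.6%). H3K4me2 was higher at 2 members with 5 kb (35.3%).

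Over gene bodies H3K27ac coverage was again higher at CYBB, CYBA, NCF4 and RAC2, 4 of 4, against 53.4% of all genes (lower in 0.953%). H3K4me2 was higher over 3 of 4 gene bodies, against 39.7% (lower in 4.76%), and H3K4me3 over that of NCF4, 1 of 3, against 23.5% (lower in 9.09%).

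None of the 5 genes passed the test across all genes (limma, Benjamini-Hochberg adjusted p under 0.05) in any mark. In H3K27ac limma called 0 of 9623 genes (0%), with 2510 at an unadjusted p under 0.05, and the exact permutation test cannot go below 0.333 with 2 libraries against 2. In H3K4me2 it called 20 of 13928 genes (0.144%), and in H3K4me3 0 of 11114 (0%), with 788 at an unadjusted p under 0.05. When libraries with the same replicate number were paired in the limma fit, 14.3% of genes were called in H3K27ac, RAC2 among them, 3.58% in H3K4me2 with none of the 5 genes, and 0% in H3K4me3. On simulated data limma did not call H3K27ac changes as wide as those of the members, or H3K4me2 changes as wide as those of NCF4 and RAC2, so a missed threshold does not show that coverage was alike. The simulation shifted 200 genes by 1000, 3000 or 6000 bp, whereas 54.6% of genes with an H3K27ac peak were higher in Corin. Its rates of calls need not carry over to these data. The members' places among all genes are shown in the plot of differences.

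**Figure D2:**
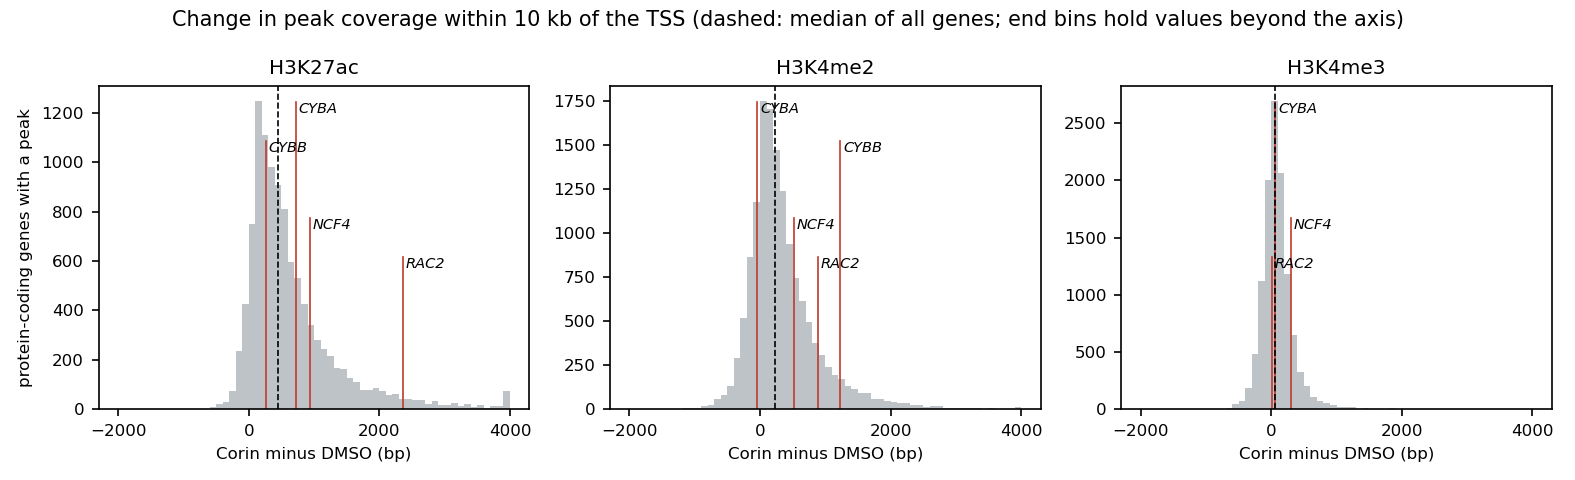
Histograms of the Corin minus DMSO difference in mean bp under peaks (horizontal axis) over protein-coding genes with a peak of the mark (vertical axis, number of genes), with values beyond the axis placed in the end bins. Red lines mark the members and the dashed line the median of all genes: RAC2 H3K27ac, at 2357.0 bp, is exceeded by 3.83% of genes, and CYBB H3K4me2, at 1231.5 bp, by 6.6%.

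CYBB, the catalytic subunit (ENSG00000165168.9, chrX:37780018-37813461 on hg38, plus strand), had little coverage and no promoter H3K4me3. Its H3K4me3 was 0 bp in all 4 libraries, as in 43% of all genes. H3K4me2 was nevertheless present in every library, a pairing with absent H3K4me3 that 9.59% of genes shared. The 500 bp either side of its TSS held 5 CpG dinucleotides, with a GC content of 34.2% and an observed-to-expected CpG ratio of 0.171. The median ratio was 0.79 in genes with H3K4me3 in all 4 libraries and 0.438 in genes with none. The promoter stretch from RefSeq (GRCh38.p14) up to the annotated gene start is printed because H3K4me2 reached it in a single library and because of its base composition. It covers chrX:37779809-37780017, plus strand, and capitals mark matches to the motifs searched.
CYBB promoter: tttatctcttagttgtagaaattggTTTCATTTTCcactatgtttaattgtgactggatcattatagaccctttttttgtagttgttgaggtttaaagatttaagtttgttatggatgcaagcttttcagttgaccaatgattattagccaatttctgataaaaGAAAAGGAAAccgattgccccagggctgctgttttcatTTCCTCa

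The motifs, searched on both strands, were GAGGAA (as in sites of the myeloid factor PU.1), TTGCNNAA (C/EBP factors), AGGTCA (a half-site of nuclear receptors), AAATCAC (GFI1), TGANTCA (AP-1) and the paired motif of interferon regulatory factors (GAAA, any 2 bases, GAAA). The CYBB promoter held the paired GAAA motif at 2 places and GAGGAA at 1. Of 35116 RefSeq promoters cut to the same 209 bases, 2.49% held the former at least once, 0.168% at least as often, and 19.8% held the latter. None of the matched stretches overlapped another. A match is a description of the letters, not of binding.

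CYBB H3K4me2 coverage was 2649 and 1074 bp in the Corin libraries and 597 and 663 bp in the DMSO libraries. Both Corin values lay above both DMSO values, but Corin replicate 1 stood well above replicate 2. The means were 1861.5 ± 1113.7 bp (SD, n = 2) and 630.0 ± 46.7 bp, a difference of 1231.5 bp with a standard error of 501 bp, or 2.95-fold. In limma this gave an unadjusted p of 0.0511 and an adjusted p of 0.352, or 0.0791 with same-numbered libraries paired. The difference was 444.0 bp without Corin replicate 1, 2019.0 bp without Corin replicate 2 and 365.5 bp at a matched number of peaks. Within 5 kb of the TSS Corin replicate 1 alone had a peak. The size of the difference thus rested on Corin replicate 1.

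CYBB H3K27ac coverage was 329 and 194 bp in Corin and 0 bp in both DMSO libraries. All of it was 1 intronic region 6555 to 6883 bp after the TSS, which both Corin libraries and neither DMSO library held. The gene entered the test through these Corin peaks alone, so no p-value is given for its difference of 261.5 bp. The peak scores were 122 and 98, and at a matched number of peaks, or with a score of at least 100, only Corin replicate 1 kept the region. The stretch that both Corin peaks shared, chrX:37786623-37786816 on the plus strand, is printed because it is the only H3K27ac at this gene.
CYBB H3K27ac: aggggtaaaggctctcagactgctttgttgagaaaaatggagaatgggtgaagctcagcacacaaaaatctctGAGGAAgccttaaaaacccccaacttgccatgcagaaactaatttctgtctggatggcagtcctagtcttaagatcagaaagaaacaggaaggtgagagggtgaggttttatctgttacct

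It held GAGGAA once, as did 20.7% of stretches of the same 194 bp from the H3K27ac regions of these lists. The same place carried H3K4me2 in all 4 libraries, as a region from 6470 to 7259 bp after the TSS with 699 and 739 bp in Corin and 597 and 274 bp in DMSO. Directly beyond it, from 7395 to 7947 bp, a further H3K4me2 region was covered over 553 and 335 bp in Corin and 0 bp in both DMSO libraries. At a matched number of peaks, or with a score of at least 100, that region too was left in 1 Corin library. The central 300 bp of the stretch shared by both Corin peaks, chrX:37787593-37787892 on the plus strand, held none of the motifs.
CYBB H3K4me2: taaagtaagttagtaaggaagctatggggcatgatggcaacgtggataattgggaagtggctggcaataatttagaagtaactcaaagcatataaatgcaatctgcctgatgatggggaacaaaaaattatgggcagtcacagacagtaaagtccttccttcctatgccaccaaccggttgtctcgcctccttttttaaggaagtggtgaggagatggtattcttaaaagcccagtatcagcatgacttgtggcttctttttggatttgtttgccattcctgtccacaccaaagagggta

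The remaining H3K4me2 at CYBB was found in fewer libraries. Corin replicate 1 alone had a region of 573 bp across the TSS (234 bp before to 338 bp after it), and also 416 bp upstream of the gene, 408 bp in an intron and 249 bp near the 3′ end. DMSO replicate 2 alone had 389 bp in an intron. At the end of the gene Corin replicate 1 had a peak of 421 bp across the boundary, while peaks of 416 bp in Corin replicate 2 and 279 bp in DMSO replicate 2 lay just past the gene and are not counted as its own. The region over the TSS therefore rested on 1 library and was absent at a matched number of peaks, and the intronic region 6470 bp after the TSS was the only one at CYBB common to all 4, although not at a score of at least 100, where 1 DMSO library lost it. The map of peaks shows these positions.

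**Figure D3:**
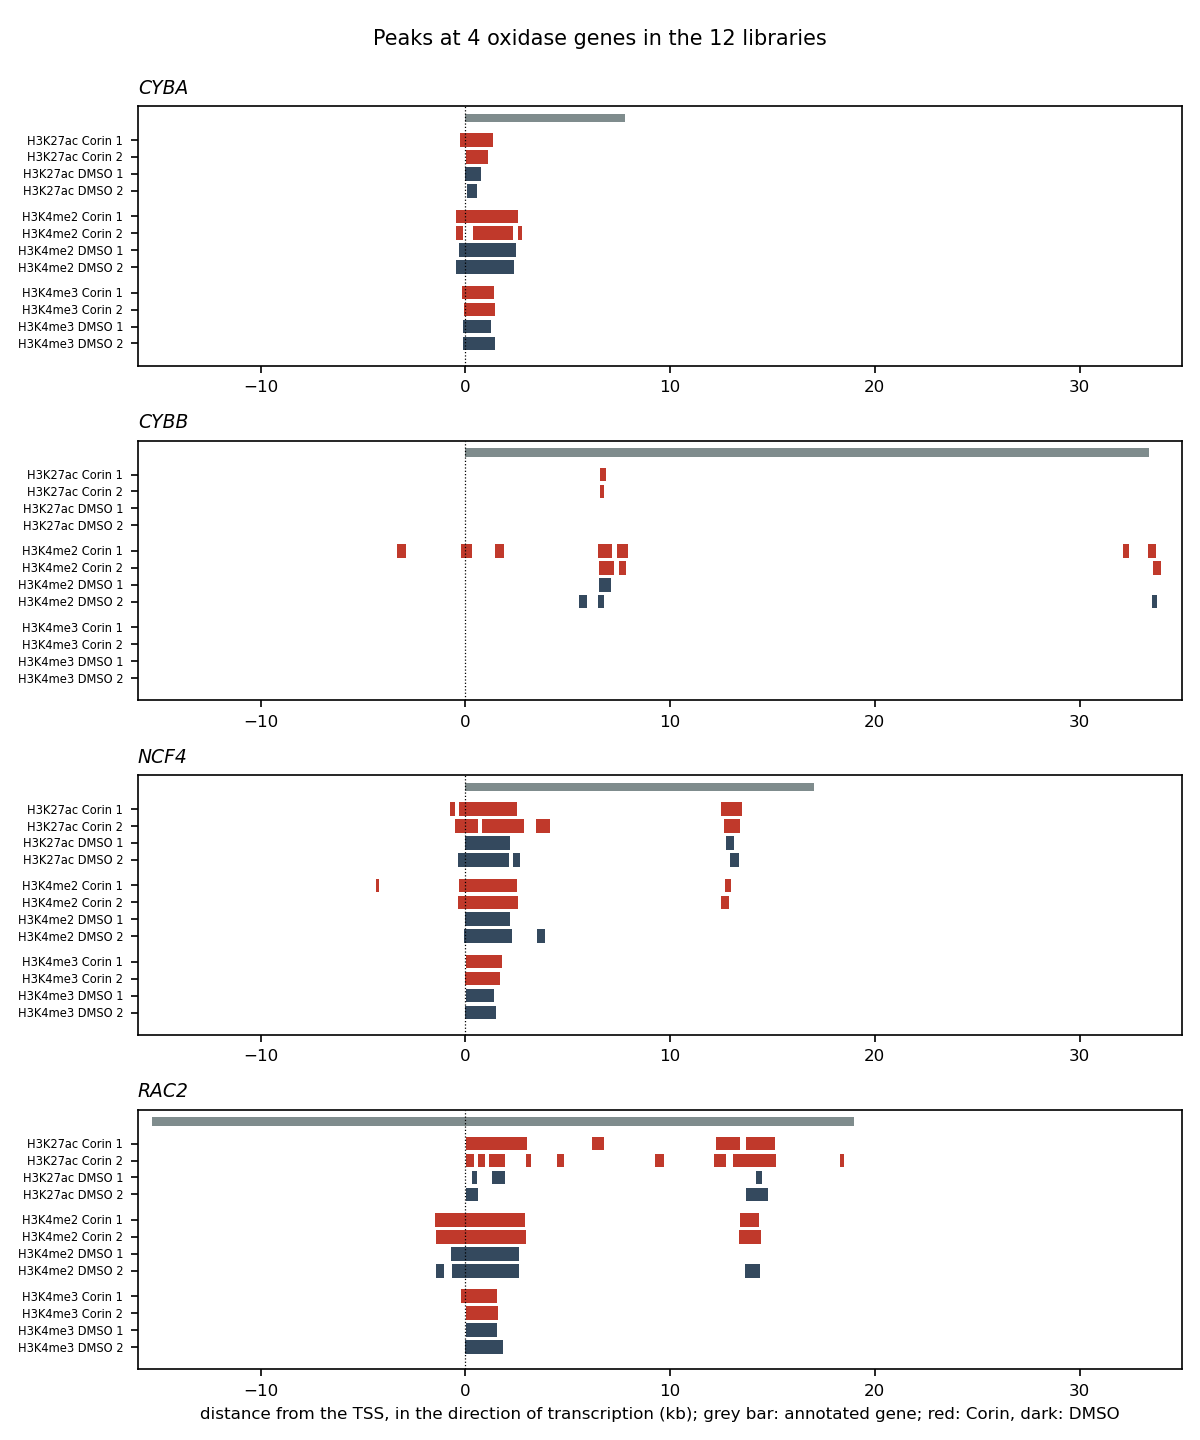
Peaks of each of the 12 libraries (rows, Corin in red and DMSO in dark blue) at CYBA, CYBB, NCF4 and RAC2, by distance in kb from the TSS in the direction of transcription, with the annotated gene as a grey bar. CYBB has intronic peaks and no H3K4me3, while CYBA, NCF4 and RAC2 have all 3 marks at the TSS, and NCF4 and RAC2 also have peaks 12 to 15 kb after the TSS.

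CYBA, the membrane partner (ENSG00000051523.12, chr16:88643275-88651083, minus strand), had all 3 marks in every library. Each mark formed a single region around the TSS. H3K27ac coverage was 1642 and 1073 bp in Corin and 782 and 491 bp in DMSO, so the groups did not overlap. The means were 1357.5 ± 402.3 bp and 636.5 ± 205.8 bp (SD, n = 2), 2.13-fold, and the difference of 721.0 bp had a limma adjusted p of 0.231. The difference was also 721.0 bp at a matched number of peaks, and 436.5 bp without Corin replicate 1.

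The 2 methylation marks of CYBA overlapped between the groups. H3K4me2 coverage was 3021 and 2503 bp in Corin and 2775 and 2827 bp in DMSO, a difference of -39 bp (limma adjusted p = 0.975). H3K4me3 coverage was 1544 and 1503 bp in Corin and 1363 and 1555 bp in DMSO, a difference of 64.5 bp (limma adjusted p = 0.964). CYBA had the most CpG-rich start of the 5 genes, with 67 CpG dinucleotides within 500 bp of the TSS, a GC content of 70% and an observed-to-expected ratio of 0.554. Its upstream stretch at chr16:88651084-88651303, minus strand, from RefSeq (GRCh38.p14), is printed for contrast with the CYBB promoter. It held 13 CpG in 220 bp, against 1 in 209 bp at CYBB, and no match to any of the 6 motifs.
CYBA promoter: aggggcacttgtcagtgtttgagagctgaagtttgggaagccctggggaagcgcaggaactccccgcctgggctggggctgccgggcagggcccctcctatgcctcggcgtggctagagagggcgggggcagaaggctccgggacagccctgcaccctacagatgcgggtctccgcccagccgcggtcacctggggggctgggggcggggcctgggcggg

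NCF1, the organising subunit (ENSG00000158517.16, chr7:74774011-74789315, plus strand), had no peak in any of the 12 lists, within 10 kb of its TSS or over its body. The same was true within 10 kb of the TSS of 28.1% of all genes. The nearest peak of any list ended 81.1 kb before the gene, and on the other side one began 100.1 kb after it. NCF1 lies in a duplicated part of chromosome 7 with the near-identical copies NCF1B and NCF1C, which also had no peak. Of the 19852 stretches of 150 bp (the read length in the labels) in its window, 82.6% occurred elsewhere in hg38, against 3.47% at CYBB and 0% at CYBA, NCF4 and RAC2. How reads that map to several places were treated is not given in the sources used here, so a value of 0 bp at NCF1 cannot be told apart from reads that were set aside.

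NCF4, the phosphoinositide-binding subunit (ENSG00000100365.16, chr22:36860988-36878017, plus strand), was the only member with higher coverage in both Corin libraries for all 3 marks. H3K27ac coverage was 3040 and 3813 bp in Corin and 2171 and 2792 bp in DMSO, 1.38-fold, with a difference of 945.0 bp (limma adjusted p = 0.296). It was 493.0 bp at a matched number of peaks, 558.5 bp without Corin replicate 2 and 1444.0 bp with 20 kb either side. H3K4me2 coverage was 3046 and 2934 bp against 2185 and 2767 bp, 1.21-fold (514.0 bp, limma adjusted p = 0.53), and the difference was 223.0 bp without DMSO replicate 1 and 805.0 bp without DMSO replicate 2. It was 622.5 bp at a matched number of peaks and 840.5 bp with 20 kb either side. H3K4me3 coverage was 1762 and 1710 bp against 1348 and 1507 bp, 1.22-fold (308.5 bp, limma adjusted p = 0.701, and 308.5 bp at a matched number of peaks). The groups were apart in each mark, by small margins relative to the replicate spread in H3K27ac and H3K4me2. In DMSO cells NCF4 already had more H3K27ac coverage than most of the 10653 genes with an H3K27ac peak, with 5.99% of them above it.

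Most NCF4 coverage was 1 promoter region per mark. For H3K27ac it ran from -490 to 2870 bp around the TSS, with 2803 and 3146 bp in Corin and 2171 and 2792 bp in DMSO. A separate intronic H3K27ac region, from 12509 to 13509 bp after the TSS, was present in all 4 libraries with 1001 and 793 bp in Corin and 370 and 426 bp in DMSO. At a matched number of peaks 1 Corin list lost it and both DMSO lists kept it, while at a score of at least 100 it was left in 1 Corin list and no DMSO list. At the same place H3K4me2 formed a region of 274 and 379 bp in the Corin libraries and 0 bp in both DMSO libraries. This H3K4me2 region was absent from both Corin lists at a matched number of peaks and from 1 of them at a score of at least 100. Its shared stretch, chr22:36873708-36873866 on the plus strand, is printed because it was the only region of NCF4 held by both Corin and neither DMSO library.
NCF4 H3K4me2: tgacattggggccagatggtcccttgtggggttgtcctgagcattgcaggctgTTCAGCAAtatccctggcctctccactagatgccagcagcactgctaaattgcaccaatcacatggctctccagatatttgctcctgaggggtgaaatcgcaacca

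It held TTGCNNAA once, as did 8.64% of stretches of the same 159 bp from the H3K4me2 regions. Near the TSS of NCF4 there were 17 CpG dinucleotides within 500 bp and an observed-to-expected ratio of 0.205, close to the 0.171 of CYBB. Unlike CYBB, NCF4 carried H3K4me3 there in every library.

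RAC2, the GTPase (ENSG00000128340.16, chr22:37225270-37259594, minus strand), had the largest difference of the 5 genes. H3K27ac coverage was 3574 and 2529 bp in Corin and 830 and 559 bp in DMSO, so the groups were well apart. The means were 3051.5 ± 738.9 bp and 694.5 ± 191.6 bp (SD, n = 2), 4.39-fold. The difference of 2357.0 bp (standard error 482 bp) had an unadjusted p of 0.00268 and an adjusted p of 0.119 in limma, and 408 of 10653 genes had a larger one. With same-numbered libraries paired, the limma adjusted p was 0.00535. Without pairing, leaving out DMSO replicate 1 or 2 gave a limma adjusted p of 0.494 or 0.244. Leaving out Corin replicate 1 or 2 gave differences of 1834.5 and 2879.5 bp with a limma adjusted p of 0.0154 and 9.43e-06. In those fits the lone Corin library is assumed to vary like the DMSO pair, which removes the spread between the Corin libraries, so they are not support for the call. At a matched number of peaks the values were 2976 and 1134 bp against 830 and 559 bp, still apart, with a difference of 1360.5 bp, or 2.96-fold. With a score of at least 100 they were 2976 and 1582 bp against 617 and 0 bp, or 7.39-fold. The fold thus depended on which peaks were kept. The annotated RAC2 gene begins 15.3 kb upstream of the canonical TSS used here, and with the window placed there H3K27ac was 0 bp in all 4 libraries.

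Over the whole RAC2 gene body H3K27ac coverage was 6160 and 5503 bp in Corin and 1109 and 1645 bp in DMSO, 4.23-fold (4454.5 bp, limma adjusted p = 0.129, or 0.0757 with same-numbered libraries paired). The coverage had 2 main parts. Just after the TSS, from 26 to 3221 bp, it was 2976 and 1731 bp in Corin and 830 and 559 bp in DMSO. Deeper in the gene, from 12137 to 15193 bp, it was 2586 and 2752 bp in Corin and 279 and 1086 bp in DMSO. Both regions were present in all 4 libraries by at least 1 bp and wider in both Corin libraries. Only the Corin libraries covered 50% or more of either, but Corin peaks set both ends of each region. The 50% rule thus restates the difference in width. A further 4 regions, of 222 to 598 bp, were each found in 1 Corin library. In replicate 2 of both groups the deeper region was wider than the one at the promoter.

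RAC2 H3K4me2 coverage was 4399 and 4431 bp in Corin and 3324 and 3719 bp in DMSO, 1.25-fold. The groups were apart, and the difference of 893.5 bp had an unadjusted p of 0.0313 and an adjusted p of 0.287 in limma. It was also 893.5 bp at a matched number of peaks, 1527.0 bp with 20 kb either side, and 252.5 bp with the window at the 5′ end of the annotated gene. The coverage within 10 kb lay in 1 region from -1498 to 2977 bp around the TSS. A second H3K4me2 region, 13378 to 14440 bp after the TSS and within the deeper H3K27ac region, had 915 and 1063 bp in Corin and 0 and 711 bp in DMSO. H3K4me3 coverage of RAC2 was 1772 and 1564 bp in Corin and 1493 and 1831 bp in DMSO, which overlapped, with a difference of 6 bp (limma adjusted p = 0.997).

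Over the 4 genes with peaks there were 30 regions when the 4 lists of each mark were merged. Of these, 12 were present in all 4 libraries, 3 in both Corin and neither DMSO library (the intronic regions of CYBB and NCF4 above), 0 in the reverse pattern and 15 in other patterns. Over the genome 11.5% of H3K27ac regions, 9.64% of H3K4me2 regions and 1.49% of H3K4me3 regions were in both Corin and neither DMSO library. For the members these counts were 1 of 12, 2 of 15 and 0 of 3. The reverse pattern held for 0.18%, 0.158% and 0.289% of regions in the genome. Regions in all 4 libraries were 5 of 12 for H3K27ac (22.8% in the genome), 4 of 15 for H3K4me2 (55.6%) and 3 of 3 for H3K4me3 (80.8%), the last all at a TSS. These patterns depended on the rule for presence, which was an overlap of 1 bp. Where at least 50% of a region had to be covered, 1 of 12 H3K27ac regions was in all 4 libraries (8.53% in the genome) and 5 of 12 were in both Corin and neither DMSO library (15.1%), the promoter region of CYBA, both wide regions of RAC2 and the deeper one of NCF4 having joined. For H3K4me2 these counts were 3 of 15 (40.7%) and 3 of 15 (13.7%). Corin peaks set both ends of the H3K27ac regions that joined, so there the rule restates a difference in width. At a matched number of peaks none of the 30 regions was in both Corin and neither DMSO library, against 2.87% of H3K27ac, 3.21% of H3K4me2 and 0.778% of H3K4me3 regions in the genome, and none was at a score of at least 100 (8.8%, 8.08% and 1.32%). No other protein-coding gene's TSS lay in a member's window.

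Partners of the enzyme examined beside the members were CYBC1, a chaperone of the membrane subunits, RAC1, the widely expressed relative of RAC2, and RAP1A, a GTPase found with the membrane subunits. H3K27ac coverage was higher in both Corin libraries at 2 of these 3 genes and lower at RAP1A, against 54.6% and 0.591% of all genes. H3K4me2 was higher at 1 of 3, RAC1, against 39.6%, and H3K4me3 overlapped between the groups at all 3. None passed limma in any mark. RAC1 H3K27ac was 2584 and 2540 bp in Corin and 924 and 736 bp in DMSO (3.09-fold, limma adjusted p = 0.119, or 0.0194 with same-numbered libraries paired), beside the 4.39-fold of RAC2. CYBC1 H3K27ac was 3150 and 2231 bp against 1528 and 1707 bp (1.66-fold, limma adjusted p = 0.211). RAP1A H3K27ac was 822 and 773 bp against 1157 and 854 bp. The widest H3K4me2 differences were 1233.5 bp at RAC1 and -218.0 bp at RAP1A, and the widest H3K4me3 differences were 188.0 bp at CYBC1 and -103.5 bp at RAC1.

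Of 12 regulators of assembly and activity, 9 had an H3K27ac peak, and in 6 of these coverage was higher in both Corin libraries, against 54.6% of all genes. H3K4me2 was higher at 9 of 12 (39.6% of all genes) and lower at 1, PLCG2, a phospholipase. H3K4me3 was higher at 3 of 12 (25.8% of all genes) and lower at PLCG2. None passed limma, and with same-numbered libraries paired 3 were called in H3K27ac (14.3% of all genes) and 2 in H3K4me2 (3.58%). The widest H3K27ac differences were at PRKCD, a kinase that phosphorylates NCF1 (7884 and 6092 bp in Corin, 2204 and 4881 bp in DMSO, limma adjusted p = 0.153, or 0.0361 paired), and ARHGDIA, an inhibitor that holds Rac proteins in the cytosol (5861 and 4887 bp, 3095 and 2990 bp). For H3K4me2 they were at PREX1, a Rac exchange factor (7791 and 7842 bp, 4650 and 5433 bp, limma adjusted p = 0.0994, or 0.0158 paired), and MAPK14, the p38 kinase (7128 and 5687 bp, 4551 and 4217 bp, limma adjusted p = 0.2, or 0.0486 paired). For H3K4me3 they were at PREX1 (539.5 bp) and HVCN1, the proton channel that balances the charge of the oxidase (397.0 bp), both with overlapping groups. HVCN1 had H3K4me3 in replicate 2 of each group alone (1241 bp in Corin, 447 bp in DMSO).

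The 10 genes of other NADPH oxidases, which belong mostly to non-phagocytic tissues, had few peaks. NOX1, NOX3, NOX4, DUOX1, DUOX2, DUOXA1 and DUOXA2 had none of any mark, as did 28.1% of all genes. H3K27ac was found at NOXO1, the counterpart of NCF1 in epithelia, in replicate 1 of each group alone (1399 bp in Corin, 469 bp in DMSO). NOXO1 H3K4me2 was higher in both Corin libraries by 900.0 bp (39.6% of all genes were higher), while NOXA1 H3K4me2 overlapped between the groups (214.0 bp). H3K4me3 was higher in both Corin libraries at NOXA1 and NOXO1, by 298.0 and 248.0 bp (25.8% of all genes). None of these passed limma. Start sites of other genes were looked for in the members' windows only. Peaks in the windows of partners, regulators and other oxidases need not belong to the gene named.

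**Figure D4:**
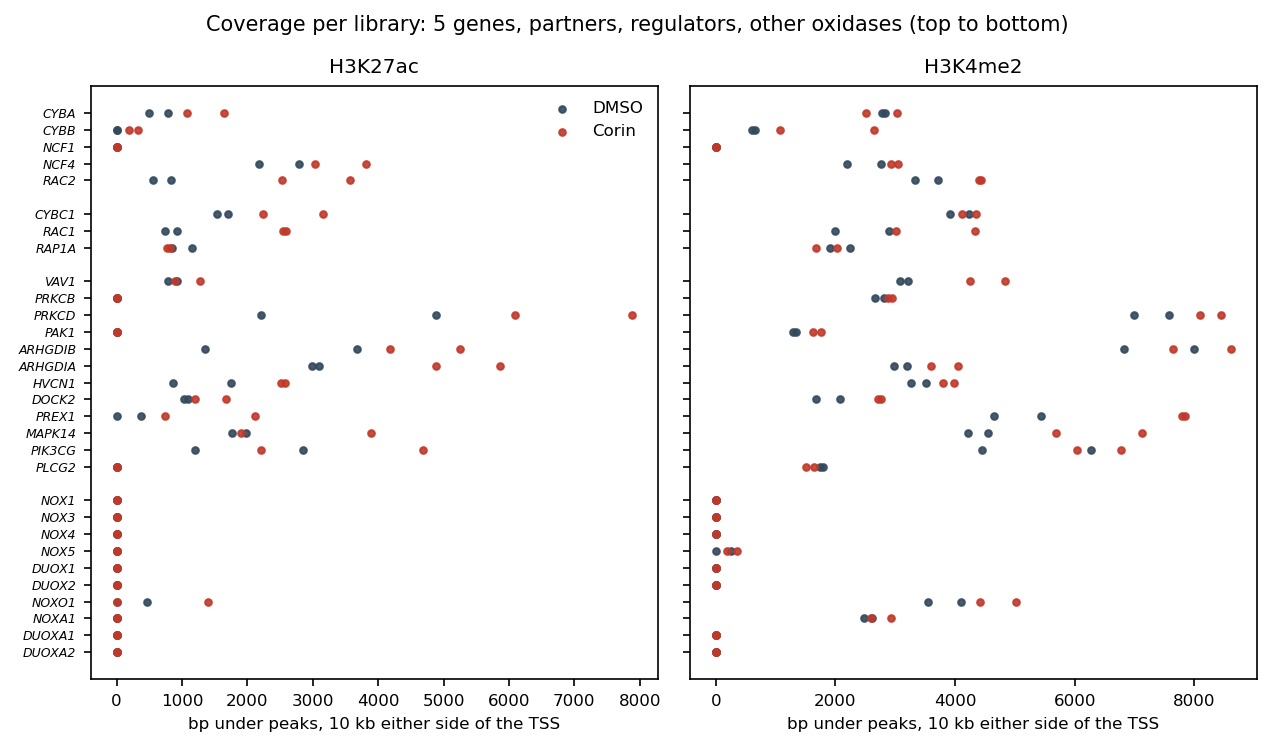
Base pairs under H3K27ac (left) and H3K4me2 (right) peaks within 10 kb either side of the TSS (horizontal axis) for the 5 genes, the partners, the regulators and the other oxidases (rows, top to bottom), with 1 point per library. For H3K27ac the Corin points of CYBB, CYBA, NCF4, RAC2, CYBC1 and RAC1 all lie above their DMSO points, RAP1A lies the other way, and 7 genes of other oxidases are at 0 in both panels.

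Other genes with a pattern close to each member were found by the mean absolute difference in bp over the 12 libraries. For RAC2 these were IFNAR2 and its readthrough gene IFNAR2-IL10RB (both 233.8 bp) and MSRB1 (265.5 bp). For CYBB they were SSC4D (96.4 bp), RIN3 (111.8 bp) and CFAP58 (112.1 bp). For CYBA they were ZNF76 (126.8 bp), TYSND1 (154.9 bp) and ENSG00000272410 (164.5 bp), and for NCF4 NEMP2 (278.6 bp), JRK (307.2 bp) and MLC1 (315.3 bp). No other member was among the 3 nearest of any member, and none could be ranked for NCF1, whose values are all 0.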

How the data were processed

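CUT&RUN peak lists of 12 MOLM-13 libraries were used, 1 list per library. Per the submitters' processing notes, Trim Galore, Bowtie2, Picard and MACS2 were used on GRCh38/hg38; versions, control, calling threshold and the treatment of reads with several places are not given in the sources used here. The authors deposited each peak's position and a score of at least 50, whose definition is not stated; it was used to order or threshold peaks inside a single list and for nothing else. 0 of 292523 peaks ended past an hg38 chromosome. Per the labels each sample had at least 5000000 paired reads of 150 bp, so depth per library is otherwise unknown and no interval that needs it was computed. The labels give 0.1 µM for the DMSO samples too, and do not say whether replicates were separate cultures, so p-values measure the spread between these samples.

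From the lists, bp under peaks within 10 kb either side of the canonical TSS (GENCODE release 44, 1 gene per symbol) were summed per gene and library with Python 3.11.15. Groups were compared by whether both Corin libraries lay above or below both DMSO libraries, and by limma 3.58.1 (R 4.3.3; moderated test with trend, separately per mark, genes with a peak in at least 2 of 4 libraries, Benjamini-Hochberg adjusted, called under 0.05), which was tested on simulated data and there missed H3K27ac changes of the members' size. The main fit did not pair libraries, and its p-values are those given unless pairing is named. Deviations of same-numbered libraries from their group means correlated at 0.312 (H3K27ac), 0.318 (H3K4me2) and 0.238 (H3K4me3). A fit with same-numbered libraries paired was therefore run as an alternative. What same-numbered libraries have in common is not stated. A region counted as present with 1 bp of overlap. Named genes were the 5 members, the 2 with the widest difference in each list and mark, and the 3 nearest in pattern; genes named only as the exception to a count were chosen after their values were seen. 1 gene of a list and 1 sequence are not reported here. Members and lists were chosen with earlier results of these data known. RefSeq's promoter table matched 3 of 5 members. Alternatives covered window, gene body, TSS, peak number, score, scale, filter, pairing and single libraries. The H3K27ac and H3K4me3 libraries of the combined treatment, LSD1 and IgG were not analysed here.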

Additional observations from a re-analysis of the deposited data

How the results depend on the processing

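The direction of the members' differences held in 103 of 107 values recomputed for 10 gene and mark pairs. CYBB H3K27ac (0 bp in DMSO) was left out, as were no filter and the replicate block, which repeat the same difference. Many of the 107 were still fixed in advance. Where both Corin values lay above both DMSO values, neither leaving out 1 library nor the log2 scale can turn the sign. The count is therefore not support for the directions. In all 11 pairs a further 8 values could not be fitted because too few libraries had a peak: CYBB H3K27ac with 5 kb, a matched number of peaks, a score of at least 100 or without either Corin library, CYBB H3K4me2 with 5 kb, and RAC2 H3K27ac and H3K4me3 with the window at the 5′ end of the annotated gene, where both were 0 bp. RAC2 H3K27ac passed the threshold in 3 settings, with the replicate block and without either Corin library. Without a Corin library the lone one is assumed to vary like the DMSO pair, so these latter passes and counts lack the spread between Corin libraries and are not support for a call. The sign turned in 4 values, all of pairs that overlapped between groups: CYBA H3K4me2 ranged from -298.0 to 220.0 bp when 1 library was left out (220.0 without Corin replicate 2), CYBA H3K4me3 from -31.5 (without DMSO replicate 1) to 160.5 bp, and RAC2 H3K4me3 from -163.0 (without DMSO replicate 1; -98 without Corin replicate 1) to 175.0 bp. Over all genes, limma called 0 in H3K27ac, but 23 without the filter on coverage and 1375 with the replicate block, which also called 1 member, RAC2. Leaving out 1 library gave 0 to 1580 genes (493 without Corin replicate 1, 1580 without Corin replicate 2) and 0 to 1 members. The 20 genes called in H3K4me2 became 174 with 20 kb either side and 499 with the block. They became 0 with 5 kb, the gene body, a matched number of peaks, a score of at least 100, log2(bp + 100) or the exact permutation test, and 0 when any 1 library was left out (0 to 0). In H3K4me3, 16 genes were called without the filter, and 1 to 3 members were higher in Corin when 1 library was left out, with 3 without DMSO replicate 2, where 49.7% of all genes were higher in place of 25.8%. The cause was not tested. Of 90 recomputed region patterns 40 moved and 0 reversed. The block changed no other call of a member. With 2 libraries a group, and widths in place of reads, differences near the spread of the replicates could not be separated.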
